A study of Solanum lycopersicum with 3 samples.

Results

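The genes described here encode proteins of the photosystems and their light-harvesting antenna in tomato (Solanum lycopersicum) fruit. They were taken by symbol: probe sets whose platform or current symbol is LOC543978 (older name psaD), PsbQ, PSBR, PSBO or CAB4. Each symbol matched 1 probe set, so the set holds 5 of the 10038 probe sets that are not controls, and 5 of the 803 genes with a name. The study asked whether mRNAs of secreted and endomembrane proteins can be isolated by an extraction that starts in high salt. RNA came from the fruit pericarp of cultivar Ailsa Craig plants grown in a glasshouse, and was measured on 3 Affymetrix tomato arrays, 1 for each preparation. The pellet preparation is RNA of the cell debris that was spun out of the Ex2 homogenate at 10000 x g for 15 min, and its label says that it was extracted by the Ex2 method. The protocol text of the pellet repeats that of Ex2, and it does not describe separately how RNA was taken from the debris. For the Ex2 preparation the tissue was taken up in 2 ml per g of a buffer with Tris, potassium chloride, magnesium and sucrose, and its RNA came from the supernatant of that spin after detergent and phenol were added. For the Ex1 preparation it was taken up in 1 ml per g of a buffer that itself contains phenol and mixed at once with phenol and chloroform. Each extraction took 10 to 12 g of tissue. Fruit age, ripening stage and the number of fruits are not given in the sources used here.

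Photosystem II splits water at the inner, lumenal face of the thylakoid membrane and passes electrons to photosystem I, which reduces ferredoxin at the stromal face. Chlorophyll a/b-binding proteins collect light for both. The proteins studied here are encoded in the nucleus, translated in the cytosol without entering the secretory route and imported into plastids. In ripening tomato fruit, chloroplasts turn into chromoplasts, and transcripts of photosynthesis genes generally decline.

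With 1 array in each group there is no replicate check: the differences below are between single arrays, no test was possible and no p-value was computed. The number of arrays limits the precision. In bulk RNA, less transcript recovered from each cell and fewer cells that contribute it cannot be told apart. Probe set intensities are on the linear scale as deposited, and differences, and the fold values made from them, are of log2(intensity + 1), which understates the differences of dim genes. They were compared where the brighter value of a pair reached 175, the median intensity of the probe sets that are not controls, and all 5 genes passed this filter in each comparison. The log2 differences given by several probe sets of the same gene lay a median of 0.38 apart in pellet minus Ex2 (24 genes). They lay 0.18 apart in pellet minus Ex1 (25 genes) and 0.22 in Ex2 minus Ex1 (26 genes). That gap leaves out the spread between extractions. Of the ripening fruit markers, 7 of 11 listed symbols matched a named gene, and all 7, among them PG2, Psy1, E8, RIN and NOR, reached the filter. Other signals also moved with the preparations. The 3 measured of 6 listed epidermal markers, lipid transfer protein genes, summed to intensities of 6672 on the pellet, 7698 on Ex2 and 2365 on Ex1. Whether that sum follows epidermal cells or the extraction was not tested. Signal for 25S ribosomal RNA was 568, 367 and 1809 in the same order, and the ratio of 3' to 5' signal of actin was 1.35 on the pellet, 1.71 on Ex2 and 1.20 on Ex1. The part of these signals in the results below was not tested. The seed marker MAN2 read 11.8 on the pellet, 14.0 on Ex2 and 10.8 on Ex1, below the filter. None of the 3 vascular and 6 further green tissue symbols listed as markers matched a named probe set.

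In photosystem I, LOC543978 encodes PsaD, the stromal subunit at which ferredoxin docks. Its intensity was 835 on the pellet array, 342 on the Ex2 array and 735 on the Ex1 array. The Ex2 value was 46.5% of the Ex1 value, while the pellet and Ex1 values lay close together.

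In photosystem II, PSBO and PsbQ encode extrinsic proteins of the oxygen-evolving complex, which sit on the lumenal face, and PsbO is the protein that stabilises the manganese cluster. PSBO had intensities of 3944 on the pellet, 3665 on Ex2 and 3944 on Ex1. The pellet and Ex1 values of PSBO are identical in the deposited table, and Ex2 stood at 92.9% of Ex1, so on the deposited scale this gene was nearly flat over the preparations. PsbQ read 1265 on the pellet, 347 on Ex2 and 637 on Ex1. Unlike PSBO, it was spread widely, with the pellet at 198% of Ex1 and Ex2 at 54.5% of Ex1. PSBR encodes a small thylakoid membrane protein of photosystem II that in Arabidopsis is needed for stable binding of the protein PsbP. Its intensities were 10806 on the pellet, 5961 on Ex2 and 9513 on Ex1, with Ex2 lowest and the other arrays close together.

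In the antenna, CAB4 encodes a chlorophyll a/b-binding protein. It read 522 on the pellet, 227 on Ex2 and 306 on Ex1, so the pellet stood above both other arrays. On the deposited scale Ex2 was the lowest array for all 5 genes, and the pellet was the highest for 4, with PSBO tied.

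**Figure D1:**
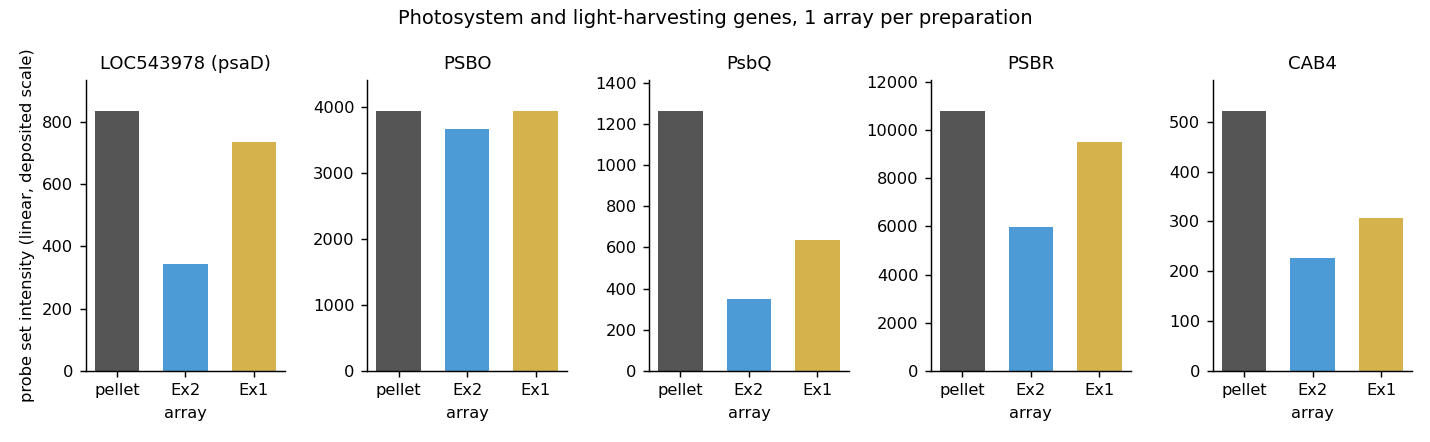
Probe set intensity (y axis, linear, as deposited, each panel with its own axis from 0) of the 5 genes on the pellet, Ex2 and Ex1 arrays (x axis), 1 bar per array and therefore no error bars. PSBO ranges only between 3665 and 3944, while PsbQ ranges between 347 and 1265.

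The first comparison, Ex2 minus Ex1, sets the high-salt supernatant against the direct phenol extract. All 5 genes were lower in Ex2 on the deposited scale, although 4 of them turned to higher when the arrays were scaled on 5 ribosomal protein genes. Of those 5, RPL37 and RPS25 were added to the list after the table had been opened, and on the other 3 alone CAB4 and PSBO turned to higher while LOC543978, PsbQ and PSBR stayed lower. LOC543978 was the lowest, at -1.10 or 2.15-fold lower, followed by PsbQ at -0.87, PSBR at -0.67, CAB4 at -0.43 and PSBO at -0.11. One of them, LOC543978, was at least 2-fold lower and 0 were at least 2-fold higher. Among all 5568 probe sets compared, 10.1% were at least 2-fold lower and 17.3% at least 2-fold higher in Ex2, and among 495 named genes 4.65% were lower and 20.2% higher. A count of 1 in 5 is too small to set apart from the 10.1% of all probe sets. The median of the 5 was -0.67, beside -0.25 over all probe sets compared, of which 62.7% were below 0. In rank, 6.39% of all probe sets compared lay lower than LOC543978, 15.6% lower than PsbQ and 25.7% lower than PSBR. CAB4, with 40.0% lower, and PSBO, with 57.6% lower, stood in the middle of the distribution.

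The second comparison, pellet minus Ex2, sets the debris against the supernatant that it was spun out of, and on the deposited scale its median difference of the 5 genes was the furthest from 0. With scaling on the spikes it was 1.85, beside -1.87 in Ex2 minus Ex1. All 5 were higher in the pellet on the deposited scale, as were 52.5% of all probe sets compared. PSBR and PSBO turned to lower with scaling on the 5 ribosomal genes. PSBO also turned on the 3 without the added ones and with quantile normalization. PsbQ was 3.63-fold higher (1.86 on the log2 scale), LOC543978 2.44-fold (1.29), CAB4 2.29-fold (1.20) and PSBR 1.81-fold (0.86), while PSBO differed by 0.11. At least 2-fold higher were 3 of the 5 and at least 2-fold lower were 0. Of all 5538 probe sets compared, 17.0% were higher by at least 2-fold in the pellet and 19.8% lower, and of 499 named genes 9.42% were higher and 21.4% lower. The share of 3 in 5 is above these backgrounds, though it is a count over few genes on single arrays. The genes were also chosen with earlier results of these data known, so the excess cannot be read as a result about them. The count became 0 with scaling on the 5 ribosomal genes (0.78% of all probe sets) and 1, PsbQ, on the 3 without the added ones (4.51%). On the spikes it was 4 (39.8%). The median of the 5 was 1.20, beside 0.07 over all probe sets compared. PsbQ lay above 98.0% of all probe sets compared, LOC543978 above 90.2% and CAB4 above 88.3%, against 78.4% for PSBR and 51.2% for PSBO. This comparison shares the Ex2 array with the first, so the low Ex2 values enter both.

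The third comparison, pellet minus Ex1, sets the debris against the direct phenol extract. On the deposited scale PsbQ was 1.98-fold higher in the pellet (0.99) and CAB4 1.70-fold higher (0.77). Both differences exceeded the gap of 0.18 between probe sets of a gene, and both kept a positive sign under each scaling tried. Since that gap leaves out the spread between extractions and arrays, exceeding it does not set a difference apart from that spread. LOC543978 and PSBR each differed by 0.18, a size like that gap whose sign turned with scaling on the spikes or on the 5 ribosomal genes, and PSBO differed by 0. No gene was at least 2-fold apart in either direction, which makes the count 0 of 5 higher and 0 of 5 lower. PsbQ, at 0.99, stood just inside the threshold of 1. The background was 3.78% higher and 4.78% lower among 5297 probe sets, and 5.10% higher and 2.55% lower among 471 named genes. PsbQ lay above 96.1% and CAB4 above 92.6% of all probe sets compared, beside 66.9% for both PSBR and LOC543978. The median of the 5 was 0.18, beside 0 over all probe sets compared.

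**Figure D2:**
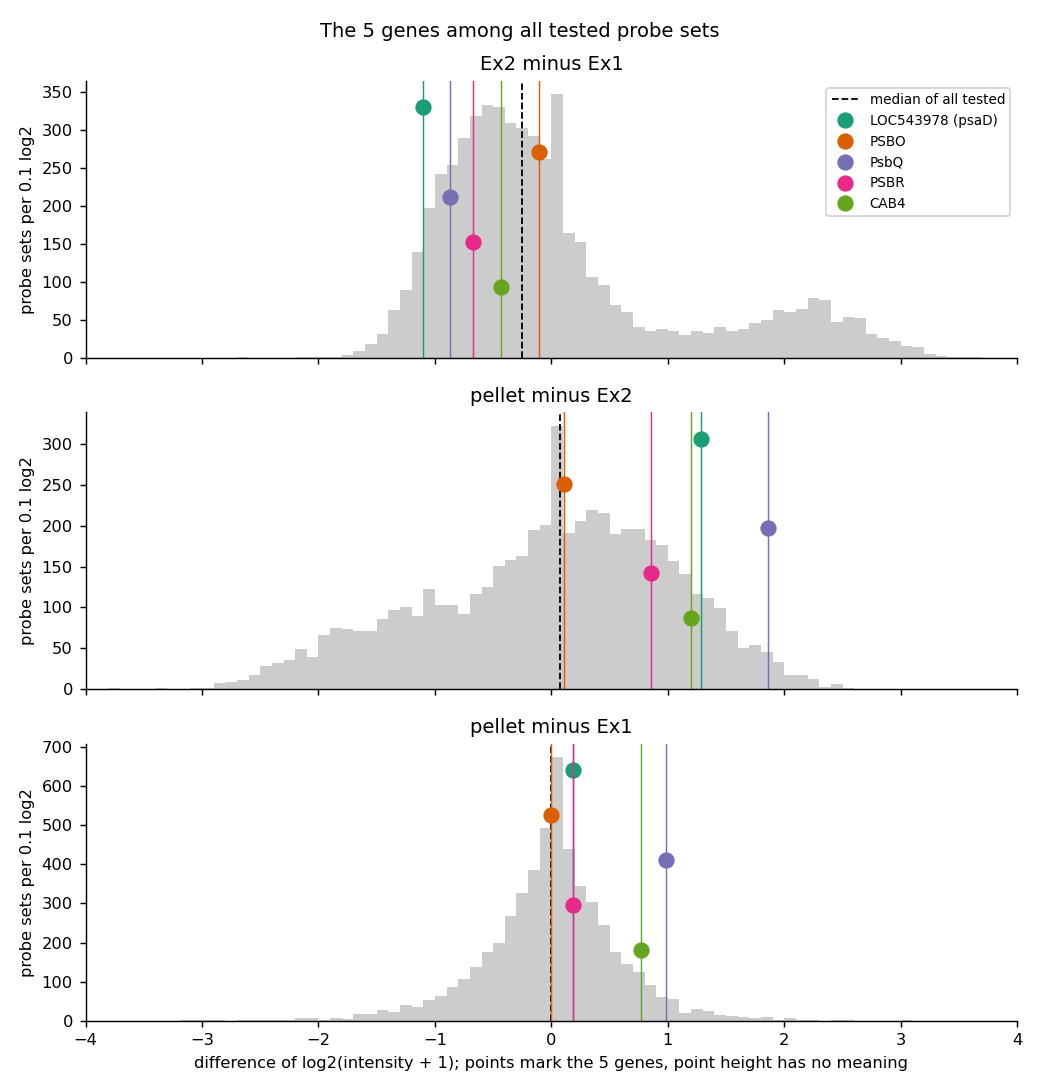
Histograms of the log2 difference of all probe sets compared (x axis, difference of log2(intensity + 1); y axis, probe sets per bin of 0.1), with a coloured line and point for each of the 5 genes and a dashed line at the median of all. All 5 genes lie below 0 for Ex2 minus Ex1 and away from its second peak above 2, on the deposited scale, and PsbQ lies furthest to the right of the 5 in both pellet comparisons, at 1.86 and 0.99.

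The 5 genes did not move as 1 block. Their differences spanned 1.76 on the log2 scale in pellet minus Ex2, 0.99 in pellet minus Ex1 and 1.00 in Ex2 minus Ex1, and a constant rescaling of an array leaves these spans as they are. Likeness was measured as the Euclidean distance between the 3 log2 values of a pair of genes, each centred on its own mean. LOC543978 and PSBR were the closest pair at 0.35, followed by PSBR and CAB4 at 0.41. PsbQ and PSBO, which encode proteins of the same complex, were the furthest apart at 1.24. Over 3 arrays such distances describe these arrays alone.

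By the same distance, 497 other named genes were searched for the 3 nearest to each of the 5. LOC543978 had matriochka (0.056), UBC27 (0.098) and PTI4 (0.13) nearest, and PSBR had CIP2a (0.016), the translation factor gene eIF-5A1 (0.024) and the ascorbate peroxidase gene APX2 (0.032). CAB4 had the dehydroascorbate reductase gene DHAR1 (0.059), LOC543929 (0.10) and ctu1 (0.11). For PSBO they were RAN2B, a gene of the Ran family of small GTPases (0.0053), LOC543938 (0.013) and LOC543710 (0.016). The nearest to PsbQ among the named genes were further off, with LOC543632 at 0.15, LOC544298 at 0.20 and the copper chaperone gene CCH at 0.21. Unnamed probe sets were not searched, so these distances do not show that PsbQ stood alone. CCH read 3022 on the pellet, 743 on Ex2 and 1670 on Ex1, so it shared the order of the arrays with PsbQ. UBC27 and ctu1 reached the filter on the pellet alone. UBC27 read 184 on the pellet, 76.2 on Ex2 and 150 on Ex1, and ctu1 read 261, 115 and 169.5 in the same order.

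Exact ties need care in reading PSBO. Among the probe sets compared, 222 of 5297, or 4.19%, had identical deposited values on the pellet and Ex1. Without the filter, 17.1% of the 10038 probe sets were tied in that pair. For pellet and Ex2 the share was 12.9%, and for Ex2 and Ex1 13.4%. Whether ties, and the flat values of PSBO and PSBP, come from the processing was not tested. RAN2B and LOC543710, the first and the last of the nearest genes of PSBO, are also such ties, at 3088 and 626.

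Other photosynthesis genes were few. From 93 listed symbols, 6 genes were measured, and 3 of them were bright enough to compare. PETE, the gene of plastocyanin, which carries electrons to photosystem I in the lumen, read 2969 on the pellet, 1398 on Ex2 and 2317 on Ex1. Its difference was 1.09 in pellet minus Ex2, 0.36 in pellet minus Ex1 and -0.73 in Ex2 minus Ex1. PSBP, a further extrinsic protein gene of the oxygen-evolving complex, read 4036 on the pellet, 3600 on Ex2 and 4036 on Ex1. Like PSBO it was nearly flat as deposited and had an exact tie between pellet and Ex1, so on the deposited scale PsbQ alone of the 3 extrinsic protein genes varied by more than 0.17 in any comparison. DCL, needed for chloroplast development, read 818 on the pellet, 523 on Ex2 and 840 on Ex1. Of these 3 genes, 0 were at least 2-fold lower in Ex2 than in Ex1, beside 10.1% of all probe sets compared. At least 2-fold higher in the pellet than in Ex2 was 1, PETE, beside 17.0% of all. Counts over 3 genes are too small to set apart from these shares. The dim genes were the antenna gene CAB6A at 77.2 (pellet), 55.6 (Ex2) and 60.2 (Ex1), CAB5 at 14.9 on every array, and sig1, a plastid sigma factor gene, at 13.5, 15.7 and 13.9 in the same order.

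On the deposited scale, genes of plastid proteins did not all move in 1 direction. Carotenoid and isoprenoid enzymes, which also act in plastids, had 9 of 12 measured genes bright enough. Their median for pellet minus Ex2 was -0.77, with 0 at least 2-fold higher and 4 of 9 at least 2-fold lower in the pellet, where the photosystem and antenna genes had 3 and 0 and 19.8% of all probe sets were lower. On the spikes that median was -0.12, with 0 of 9 at least 2-fold lower and 4 of 9 above 0, and on the 5 ribosomal genes it was -1.87. ZEP, among the 4 called lower on the deposited scale, and NSY reached the filter on Ex2 but not on the pellet. Without the filter the median of the 12 measured genes for pellet minus Ex2 was -0.42 on the deposited scale. DXS, the first enzyme of plastid isoprenoid synthesis, was lowest at -1.48, and CrtR-b1 was tied at 0. In pellet minus Ex1 their median was -0.33 and in Ex2 minus Ex1 0.31, where the photosystem and antenna genes had 0.18 and -0.67. The 0.31 of the carotenoid list turned to -0.89 with scaling on the spikes. A further 17 genes of plastid proteins, a mixed list picked by symbol after the table had been opened, gave 12 that were bright enough. Their medians were 0.11 in pellet minus Ex2, -0.0041 in pellet minus Ex1 and -0.09 in Ex2 minus Ex1 on the deposited scale. On the spikes, all 12 and all 9 carotenoid genes were below 0 in Ex2 minus Ex1. There the median of the 12 was -1.28, beside -1.45 over all probe sets compared. On the 5 ribosomal genes it was 0.79, beside 0.63. In that list the thioredoxin gene CITRX was at 1.00 in pellet minus Ex2 and -1.02 in Ex2 minus Ex1, and HDS, an isoprenoid enzyme gene, was at -1.07 and 0.51.

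Cytosolic ribosomal proteins had 5 measured genes, the 2 added after the table had been opened included. On the deposited scale all were lower in Ex2 than in Ex1 (5 of 5, beside 62.7% of all probe sets compared). All were also higher in the pellet than in Ex2 (5 of 5, beside 52.5%). Ribosomal medians were 1.11 in pellet minus Ex2, 0.19 in pellet minus Ex1 and -0.83 in Ex2 minus Ex1. Without RPL37 and RPS25 they were 0.59, -0.02 and -0.61 in the same order over 3 genes, so their nearness to the photosystem medians of 1.20 and 0.18 in the pellet comparisons came with the added genes. The range of the ribosomal genes for pellet minus Ex1, -0.19 to 0.43, took in LOC543978, PSBR and PSBO but neither PsbQ nor CAB4. For pellet minus Ex2 their range, 0.28 to 1.46, left out PsbQ above and PSBO below. For pellet minus Ex2, cell wall genes stood at the other end. All 20 bright ones were lower in the pellet than in Ex2 on the deposited scale and 18 with scaling on the spikes, with medians of -1.97 and -1.32. Of all probe sets compared, 45.2% were lower in the pellet on the deposited scale. TBG6, CEL8 and PMEU1 reached the filter on Ex2 but not on the pellet, so the filter itself favoured a negative sign for them. Without the filter the cell wall median for pellet minus Ex2 was -0.84 over 36 genes on the deposited scale. The contrast did not hold for pellet minus Ex1. There the cell wall median was 0.57 on the deposited scale, with 16 of 17 bright genes above 0, beside 48.7% of all probe sets compared. On the spikes it was 0.03, with 10 of 17 above 0. The distances between lists were not tested, since single arrays allow no test.

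**Figure D3:**
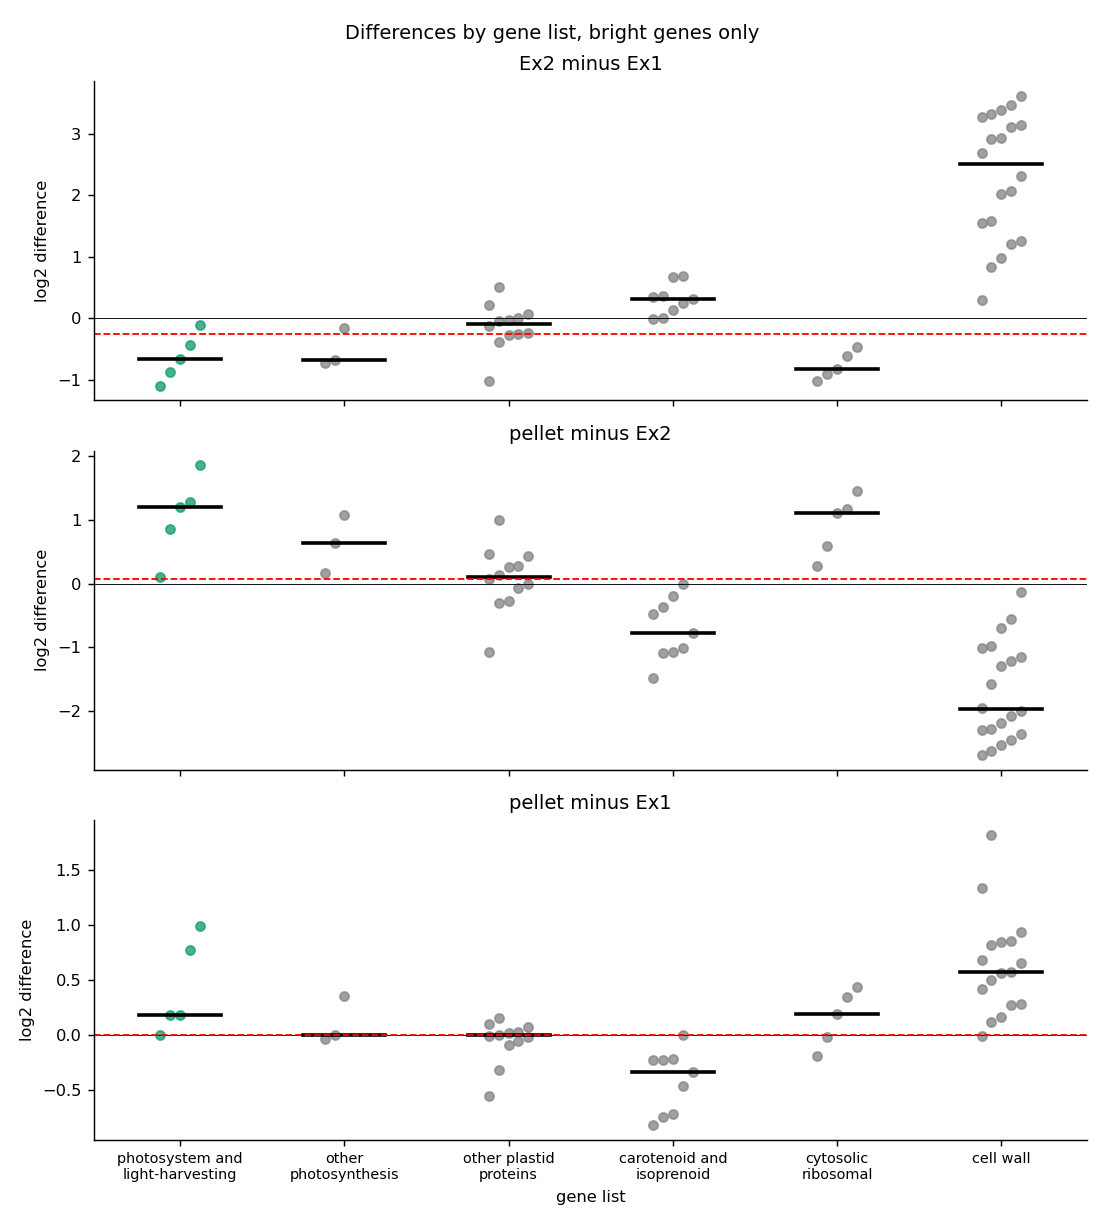
Log2 differences (y axis) of genes that passed the brightness filter, by gene list (x axis), 1 point per gene, a black bar at the median of the list and a dashed red line at the median of all probe sets compared, all on the deposited scale. For pellet minus Ex2 the photosystem and light-harvesting genes (median 1.20) and the cytosolic ribosomal genes (median 1.11) lie high, and carotenoid (median -0.77) and cell wall genes (median -1.97) lie low.

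All signs above hold on the deposited scale, and the scale itself was uncertain. Hybridisation spikes, bacterial and phage control RNAs added to each sample before hybridisation, gave a signal on Ex2 a median of 2.27-fold above that on Ex1 over 27 probe sets. On the pellet they were 1.50-fold dimmer than on Ex2 and 1.45-fold brighter than on Ex1. With the spikes as the scale, the median of all probe sets compared shifted by 0.65 in pellet minus Ex2, -0.54 in pellet minus Ex1 and -1.19 in Ex2 minus Ex1. With the 5 ribosomal protein genes as the scale it shifted by -1.10, -0.22 and 0.88 in the same order, and with the 3 of them that were listed first by -0.59, 0.02 and 0.61. Against the median of all probe sets, which moves with the scale, 4 of the 5 genes were lower in Ex2 than in Ex1, PSBO being the exception, and the median of the 5 was 0.42 below it (-0.42). Without the brightness filter all 5 lay below it and that gap was -0.65, since the median of all moved by 0.23. In the pellet against Ex2 all 5 were above the median of all (4 with quantile normalization, and 3 of 4 with the upper-quartile filter), and the median of the 5 stood 1.13 above it. With scaling on the 5 ribosomal genes, LOC543978 alone kept a negative sign for Ex2 minus Ex1 (-0.22) and CAB4 turned to 0.45, PSBR to 0.21, PSBO to 0.77 and PsbQ to 0.01. On the 3 ribosomal genes LOC543978 was at -0.49, PsbQ at -0.26 and PSBR at -0.06, and CAB4 turned to 0.18 and PSBO to 0.51. With the scaling on 5 genes PSBR and PSBO turned to -0.24 and -0.99 for pellet minus Ex2, while PsbQ kept 0.76. On the 3 genes PSBO alone turned, to -0.49, with PSBR at 0.27 and PsbQ at 1.27, and with quantile normalization PSBO turned to -0.04. For pellet minus Ex1, LOC543978 and PSBR turned to -0.36 each on the spikes and to -0.04 each on the 5 ribosomal genes, but stayed at 0.21 each on the 3. PsbQ kept 0.45, 0.77 and 1.01, and CAB4 kept 0.23, 0.55 and 0.79, under these scalings.

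**Figure D4:**
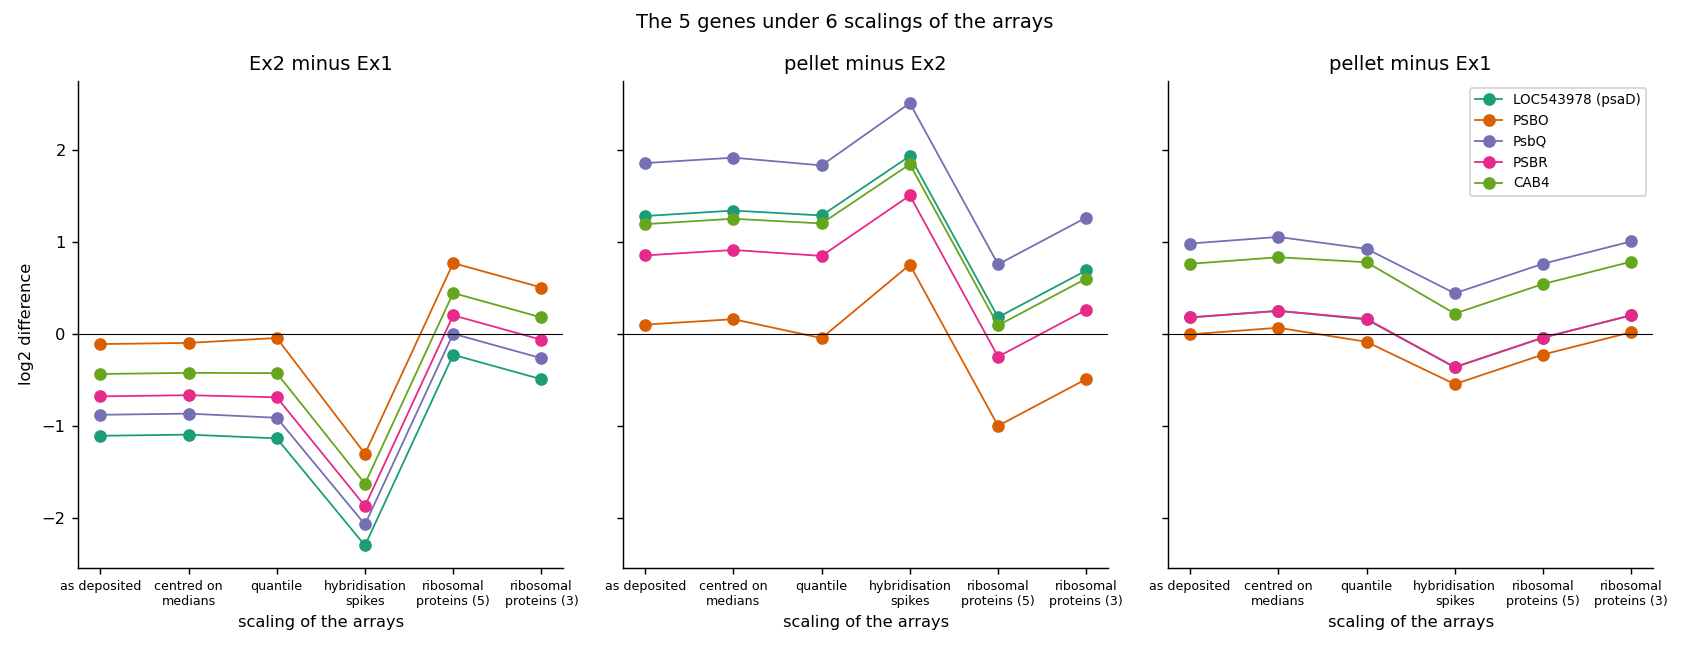
Log2 difference (y axis) of each of the 5 genes under 6 scalings of the arrays (x axis; the last 2 use 5 ribosomal protein genes, or 3 without RPL37 and RPS25), with lines joining the values of a gene. Values for pellet minus Ex1 stay above 0 for PsbQ and CAB4 under all 6, between 0.45 and 1.06 for PsbQ, while values for Ex2 minus Ex1 lie below 0 for all genes except with ribosomal scaling, where LOC543978 alone (5 genes) or LOC543978, PsbQ and PSBR (3 genes) do.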

How the data were processed

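Probe set intensity values were used as deposited by the authors, and their range shows that they are linear. Per the submitters' processing notes GCOS 5.0 and RMA were used, without order, parameters or an RMA version, so what scaled the arrays is unknown. Of 10209 probe sets, 171 are controls. Names came from the platform annotation (909 probe sets with 1 name, 0 with several, 9129 unnamed here), updated through gene IDs with the RefSeq table of assembly SLM_r2.1, which held all 5 genes described. A gene with several probe sets was represented by the brightest. DFR, which matched the photosynthesis list through an older symbol, was left out of it. The pseudocount was 1, and counts are of differences of at least 2-fold. All 5 genes were named by rule, as was every measured photosynthesis gene and the 3 nearest genes of each. The members and lists were chosen with earlier results of these data known, and RPL37, RPS25 and the mixed plastid list were added after the table had been opened. Alternatives covered the filter, scaling, pseudocount, threshold and probe set choice. The planned protein sequence features were not analysed here. The code was tested on simulated data. Python 3.11.15, pandas 2.3.3, NumPy 2.4.6 and matplotlib 3.10.9 were used.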

Additional observations from a re-analysis of the deposited data

How the results depend on the processing

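No paired analysis was possible because each preparation has 1 array. The median of the 5 genes moved with scaling alone: on the spikes it was 1.85 in pellet minus Ex2, -0.36 in pellet minus Ex1 and -1.87 in Ex2 minus Ex1, on 5 ribosomal proteins 0.097, -0.036 and 0.21, and on 3, leaving out RPL37 and RPS25 (an alternative chosen after seeing the data), 0.61, 0.21 and -0.059. Genes at least 2-fold lower in Ex2 than in Ex1 numbered 5 on the spikes (71.7% of all probe sets), 0 on 5 ribosomal proteins (0.13%) and 0 on 3 (0.31%). They numbered 3 at a threshold of 1.5-fold (31.0%) and 0 at 3-fold (0.38%). Those higher in the pellet than in Ex2 numbered 4 on the spikes (39.8%), 0 on 5 ribosomal proteins (0.78%), 1 on 3 (4.51%), 4 at 1.5-fold (30.9%) and 1 at 3-fold (4.60%). Those higher in the pellet than in Ex1 numbered 1 with arrays centred on medians (4.66%), 1 on 3 ribosomal proteins (4.02%) and 2 at 1.5-fold (12.2%). These shifts follow from the construction of each alternative. Over all probe sets compared, the split of higher to lower at 2-fold for Ex2 minus Ex1 was 964 to 560 as deposited, 439 to 3991 on the spikes 1695 to 7 on 5 ribosomal proteins and 1319 to 17 on 3. For pellet minus Ex2 it was 943 to 1095, 2203 to 495, 43 to 2824 and 250 to 1774, and for pellet minus Ex1 200 to 253, 48 to 898, 111 to 422 and 213 to 234. The other alternatives (no filter, an upper-quartile filter, which left out CAB4, quantile normalization, a pseudocount of 16, the mean of probe sets and no cross-hybridising designs) left the medians of the 5 genes within the probe set gap and the counts within 1.5 times. Each of the 5 genes has 1 named probe set, so the choice between named probe sets could not matter. Whether the 9129 unnamed probe sets hold others of these genes was not tested. CAB4 on Ex2, at 227, was nearest to the brightness filter of 175.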
